A study of Mus musculus with 6 samples.

Results

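The auxiliary subunits of voltage-gated calcium channels were examined in neural stem cells cultured from both ventricular regions of the mouse embryo. The family comprised the 4 alpha2delta genes Cacna2d1 to Cacna2d4 and the 4 beta genes Cacnb1 to Cacnb4. Each gene was read from the probe set annotated to that gene alone, and where a gene had more than 1, from the one whose mean over all 6 arrays was highest. This gave 7 measured genes of the 8, out of 19938 genes in all, and Cacnb3 had no such probe set and is not analysed here. The family was selected on measured values, the regional difference of Cacna2d3 in these arrays, so the values of that gene are given as a description and its difference is not counted as a test result.

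A voltage-gated calcium channel is built around a pore-forming alpha1 subunit that opens when the membrane depolarizes. Beta subunits bind the alpha1 subunit inside the cell, help it to reach the membrane and tune its gating. Alpha2delta subunits are extracellular, membrane-anchored glycoproteins that raise the number of channels at the surface, and in neurons they also act in the formation of synapses. In neural progenitors, calcium entry through such channels has been linked to proliferation and differentiation.

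Total RNA came from neural stem cell cultures of wild type C57BL/6 embryos of embryonic day 17.5, labelled female. There were 3 arrays from the subventricular zone of the lateral ventricle, here L1 to L3, and 3 from that of the third ventricle, here T1 to T3, and no treatment or genotype differed between them. All cultures grew in low-attachment dishes with the supplements N2 and B27 and with both growth factors at 20 ng/ml, FGF and EGF, so the levels are those of expanded cultures and not of the tissue. The labels number the arrays as biological replicates but tie no number to an animal and do not say whether embryos were pooled, so a p-value here covers only the spread from culture to culture.

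Array medians over all probe sets lay between 5.43 and 5.47 on the log2 scale. The gauge of background was the 95th percentile of 1027 olfactory receptor genes (5.03 to 5.16 by array). Of 11 measured neural stem cell markers, 9 lay above it in all arrays, against 1 of 11 vascular, meningeal and blood markers. So did 10 of 12 astrocyte, 9 of 11 oligodendrocyte lineage and 8 of 12 neuron markers. The count therefore does not set stem cells apart from these cell types. Foxd1, a forkhead factor of the developing hypothalamus, was higher in the third ventricle cultures by 2.78 on the log2 scale (limma, adjusted p = 7.34e-05). It was the 1 of 15 measured regional factors of forebrain and hypothalamus with an adjusted p below 0.05, beside 0.231% of all genes. Of these 15, 9 had a positive and 6 a negative difference, the lowest -0.84 for Gsx2. Over all genes L2 was less like L1 (r = 0.980) and L3 (0.982) than like T1 to T3 (0.991 each). Relative to the mean over the 6 arrays, the median of 19 cell cycle genes was -1.36 in L1, 0.57 in L2 and -0.88 in L3, against 0.54 to 0.61 in T1 to T3. Values without L2 are therefore given for each measured auxiliary gene, and for the calcium gene lists and the neuron and oligodendrocyte markers the genes that passed without it are counted or named.

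Within the family, the data showed a higher level of Cacna2d3 in all 3 cultures of the third ventricle. Cacna2d1 read lower in the same cultures without passing the test, and the other 5 measured genes lay near background. Across all genes, 0.231% passed at an adjusted p below 0.05 (limma, Benjamini-Hochberg over 19938 genes), and within the family 1 of 7 did, Cacna2d3. Because that gene was the reason for choosing the family, nothing is read from this count. Of the 6 other genes, 0 passed, and 1, Cacna2d1, had an unadjusted p below 0.05, as 12.6% of all genes had. All 6 had a negative difference (the third ventricle minus the lateral), with a median of -0.08 against -0.02 over all genes. The sign was not settled for Cacna2d4 and Cacnb4, each of which reversed in 3 alternative settings.

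**Figure D1:**
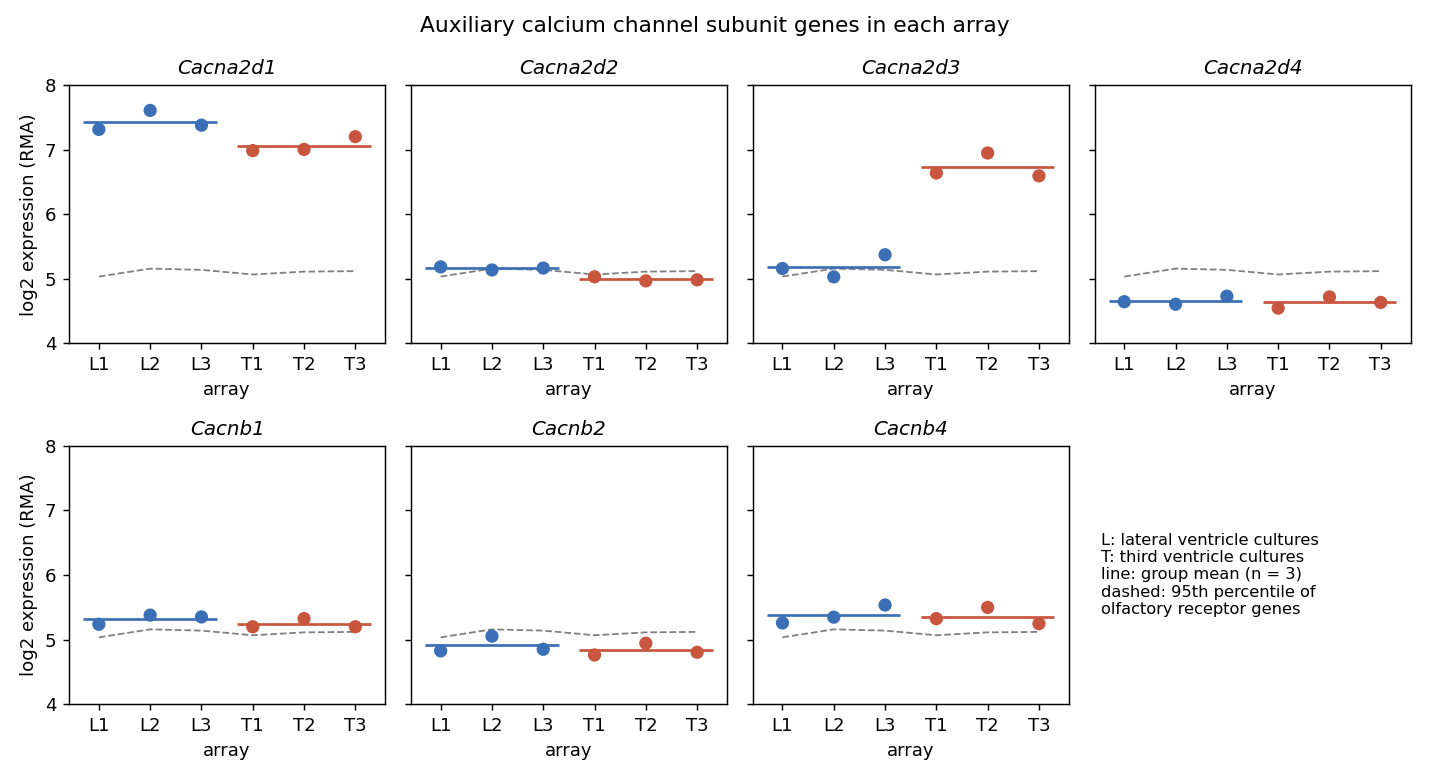
Log2 expression (RMA, y axis) of the 7 measured auxiliary subunit genes in each array (x axis; L1 to L3 from the lateral, T1 to T3 from the third ventricle). Points are single arrays, solid lines the group means of 3 arrays and the dashed line the 95th percentile of olfactory receptor genes. Cacna2d3 sits between 6.59 and 6.95 in the third ventricle cultures and between 5.03 and 5.37 in the lateral ones, and Cacna2d1 is the only gene well above the dashed line in both groups.

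Cacna2d3 encodes an alpha2delta subunit found in brain, including neurons of sensory pathways. It was read from probe set 10418300, which is annotated to 1 transcript accession. Its log2 values were 5.16, 5.03 and 5.37 in L1, L2 and L3 and 6.64, 6.95 and 6.59 in T1, T2 and T3. T1 to T3 were thus all above L1 to L3, with a gap of 1.22 between the lowest value of the one group and the highest of the other. The means were 5.19 ± 0.17 in L1 to L3 and 6.73 ± 0.19 in T1 to T3 (SD, n = 3), a log2 difference of 1.54 (SE 0.13, 95% interval 1.23 to 1.85), or 2.90-fold. Of the 19938 genes, 8 had a larger difference toward the third ventricle.

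The lateral level of Cacna2d3 lay at the edge of detection. It was above the gauge of background in 2 of 3 lateral arrays and in 3 of 3 arrays of the third ventricle. Since RMA compresses low values, the fold may understate the difference in RNA. In bulk cultures, a higher share of cells with the transcript and more transcript per cell cannot be told apart.

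L2 resembled T1 to T3 over all genes and in its cell cycle genes, and held the lowest Cacna2d3 value of the 6 arrays. The gene was chosen for its difference between the groups in these arrays, so low lateral values follow from that choice. The part of the cell cycle difference in that of Cacna2d3 was not tested. Without L2 the difference was 1.46, and with L2 as the sole lateral array 1.70. With T1, T2 or T3 left out, the difference was 1.58, 1.43 and 1.60, in the same arrays on which the gene was chosen. Its adjusted p then lay between 0.0577 and 0.0671, above the threshold, in fits that called 4 to 7 of the 19938 genes. It was also above the threshold, at 0.0526, when all 35556 probe sets were fitted together, where 4 passed.

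Genes whose pattern over the 6 arrays was most like that of Cacna2d3 were sought among 1158 genes with a range of at least 1 on the log2 scale. The 5 with the highest Pearson correlation were Lrrc42 (r = 0.983), the ferric reductase Cybrd1 (0.979), the unnamed transcript E330013P04Rik (0.978), Foxd1 (0.976) and the adhesion molecule Chl1 (0.965). The 6 points share the region contrast, which alone gives a high r to any gene that differs between the regions, so these values only describe the arrays. All 5 were higher in the third ventricle cultures, by 1.07 for Lrrc42, 1.42 for Cybrd1, 1.31 for E330013P04Rik, 2.78 for Foxd1 and 2.53 for Chl1.

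**Figure D2:**
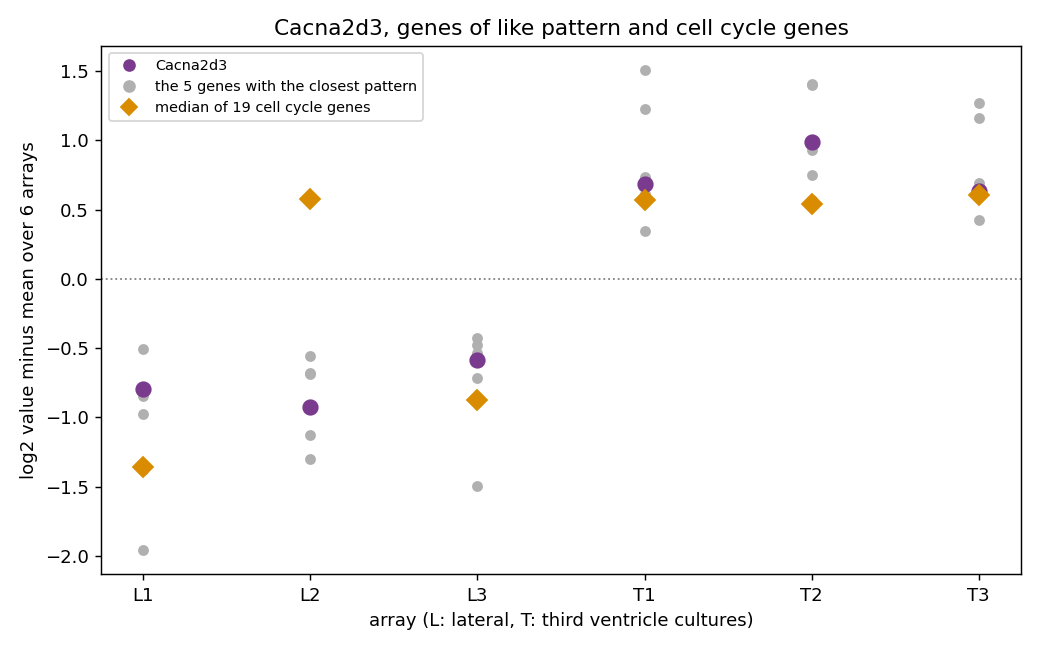
Log2 values minus the mean over the 6 arrays (y axis) for Cacna2d3 (purple), the 5 genes of closest pattern (grey) and the median of 19 cell cycle genes (orange diamonds), by array (x axis; L for the lateral, T for the third ventricle). In L2 the cell cycle median, 0.57, lies at the level of the third ventricle arrays. Cacna2d3, which was chosen for its difference between the groups, lies in L2 with the other lateral arrays.

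Cacna2d1 encodes the alpha2delta subunit that binds gabapentin and serves as a neuronal receptor of thrombospondins. In probe set 10519815 its log2 values were 7.31, 7.61 and 7.38 in L1, L2 and L3 and 6.98, 7.003 and 7.20 in T1, T2 and T3. T1 to T3 all lay below L1 to L3, by at least 0.11. The means were 7.43 ± 0.15 and 7.06 ± 0.12 (SD, n = 3), a difference of -0.37 (95% interval -0.63 to -0.11), which made it 1.29-fold higher in the lateral cultures. This did not pass (limma, adjusted p = 0.301), so the direction is opposite to that of Cacna2d3 but not established at this number of arrays.

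Cacna2d1 was the only member with a further probe set, and it gave a like value. The second probe set, 10519855, read 7.33, 7.10 and 7.19 in L1, L2 and L3 and 6.71, 6.80 and 6.92 in T1, T2 and T3. Again the groups did not overlap, with a gap of 0.18. The difference was -0.40 (95% interval -0.65 to -0.14, limma over all probe sets, adjusted p = 0.402). Both probe sets read the same 6 RNA samples, so the second is no independent replicate. The array with the highest lateral value differed between them, L2 for the first and L1 for the second.

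**Figure D3:**
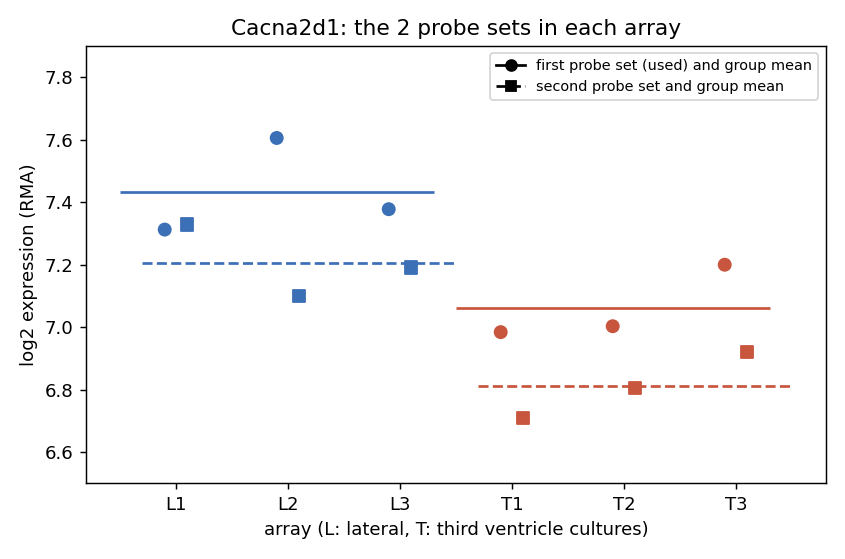
Log2 expression (RMA, y axis) of both Cacna2d1 probe sets in each array (x axis; L for the lateral, T for the third ventricle). Circles with solid group means are the probe set with the higher mean and squares with dashed group means the second; for each, T1 to T3 lie below L1 to L3.

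Cacna2d1 differed by -0.28 without L2 (adjusted p = 0.173) and by -0.54 with that array as the sole lateral one. Over its 16 alternative settings the difference ranged from -0.54 to -0.28 and the adjusted p from 0.169 to 0.672. Of 11 measured oligodendrocyte lineage markers, 9 had a negative difference, small for Cspg4 (-0.09), and 2 a positive one, Olig1 (0.17) and Olig2 (0.09). In the third ventricle cultures 2 passed as lower, where 0.0853% of all genes did. They were Pdgfra, a receptor of oligodendrocyte progenitors (-1.79, limma, adjusted p = 0.00707), and Lhfpl3 (-1.22, adjusted p = 0.00746). The mean log2 value of that list ranged from 6.77 to 6.96 in L1 to L3 and from 6.26 to 6.35 in T1 to T3. Of the 11, 9 were above the gauge in all 6 arrays, among them the myelin genes Mbp and Cnp. Mbp lay close to the gauge, at 5.13 to 5.48, and Mag was above it in none. Without L2, 4 passed as lower, with Sox10 and Gpr17 added, in a fit where 8.25% of all genes passed in either direction. Their part in the differences of Cacna2d1 and Cacna2d3 was not tested.

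Cacna2d2 encodes an alpha2delta subunit prominent in cerebellar Purkinje cells. Its values were 5.18, 5.14 and 5.17 in L1, L2 and L3 and 5.03, 4.97 and 4.99 in T1, T2 and T3. The groups did not overlap but lay only 0.11 apart, and T1 to T3 were below the gauge of background. The difference was -0.17 (95% interval -0.36 to 0.03, adjusted p = 0.451) and stayed between -0.19 and -0.14 over its 14 alternatives. Leaving out Cacna2d3, which chose the family, the groups did not overlap in 2 of 6 genes, Cacna2d1 and Cacna2d2, beside 17.0% of all genes.

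Cacna2d4, the alpha2delta subunit of retinal photoreceptor synapses, was below the gauge in all 6 arrays. It read 4.65, 4.61 and 4.73 in L1 to L3 and 4.55, 4.72 and 4.64 in T1 to T3, and the groups overlapped. The difference of -0.03 (95% interval -0.24 to 0.19, adjusted p = 0.932) turned to 0.01 without L3, so it has no settled sign. A level at background gives no information on the amount of this RNA.

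None of the 3 measured beta genes passed, and in each the groups overlapped. Cacnb1, the beta subunit of the skeletal muscle channel that is also made in brain, read 5.24, 5.38 and 5.35 in L1 to L3 and 5.20, 5.33 and 5.20 in T1 to T3. Its difference was -0.08 (95% interval -0.30 to 0.13, adjusted p = 0.768). Cacnb2, the main cardiac beta subunit, read 4.83, 5.05 and 4.85 in L1 to L3 and 4.76, 4.94 and 4.80 in T1 to T3, below the gauge in all 6. The difference of Cacnb2 was -0.07 (-0.31 to 0.17, adjusted p = 0.822). Its probe set is annotated to 1 transcript accession, so other transcripts of the gene may not be read.

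Cacnb4, a beta subunit of brain whose loss causes the ataxia of the lethargic mouse, read 5.26, 5.35 and 5.54 in L1, L2 and L3. It read 5.32, 5.50 and 5.25 in T1, T2 and T3, so each group reached into the other. The difference was -0.02 (95% interval -0.29 to 0.24, adjusted p = 0.955). Cacnb1 and Cacnb4 lay above the gauge in all 6 arrays, but close to it. The intervals of Cacna2d2, Cacna2d4 and the 3 beta genes together ran from -0.36 to 0.24. Values near background are compressed, so these intervals do not bound a difference in RNA. Without L2 these 5 genes differed by -0.18 (Cacna2d2), -0.05 (Cacna2d4), -0.05 (Cacnb1), -0.00099 (Cacnb2) and -0.04 (Cacnb4), and the adjusted p of each was at least 0.325.

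**Figure D4:**
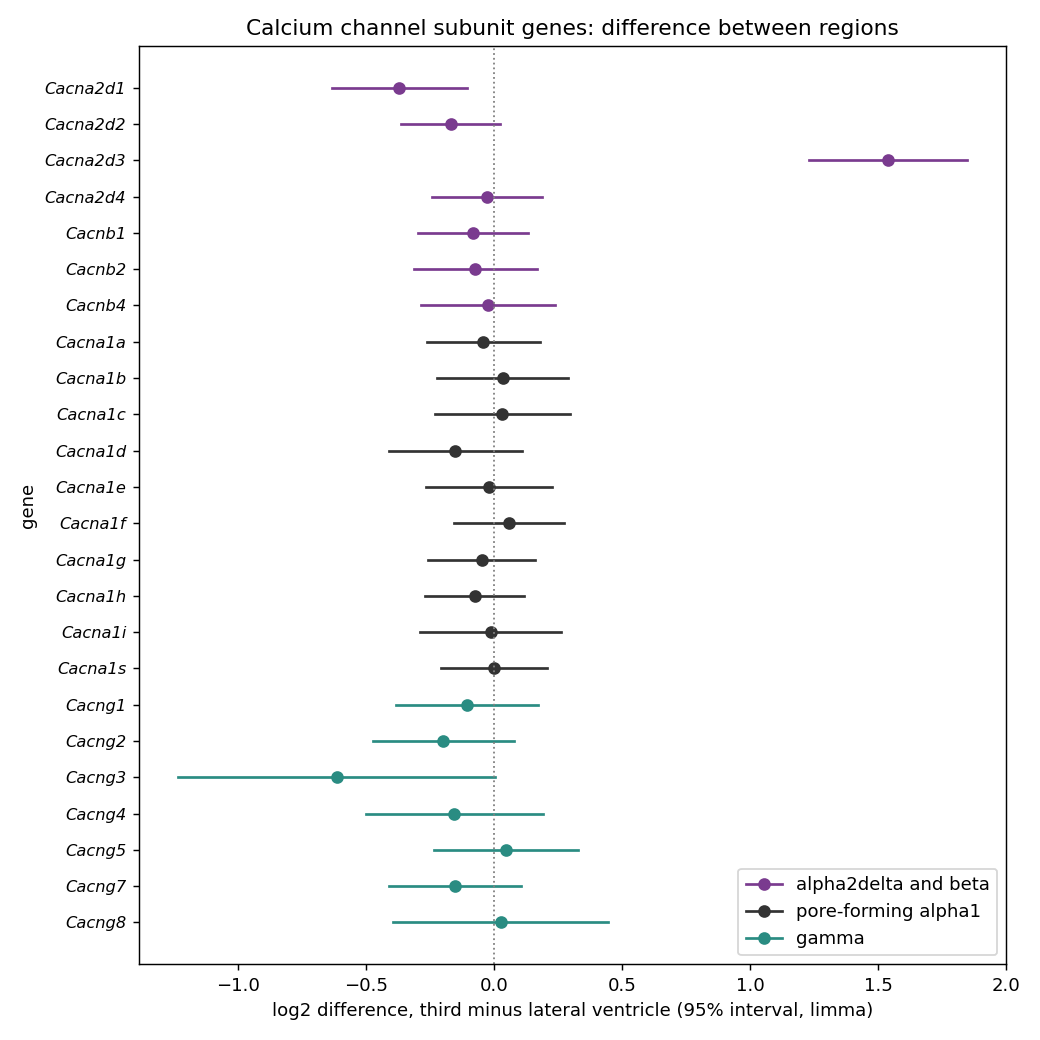
Log2 difference of the third minus the lateral ventricle cultures (x axis, points) with 95% intervals from limma (bars; 3 arrays a group) for auxiliary subunits (purple), pore-forming alpha1 subunits (black) and gamma subunits (teal), 1 gene a line (y axis). Cacna2d3 lies at 1.54, and no other gene shown has a point above 0.07.

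The subunits that the auxiliary proteins attach to did not pass in either direction. All 10 alpha1 genes were measured, 0 passed (limma; 0 at an unadjusted p below 0.05), 4 lay above 0, and their median difference was -0.02, as over all genes. Their differences ran from -0.15 for Cacna1d to 0.06 for Cacna1f. Cacna1c, the pore of an L-type channel, read 5.88, 6.07 and 6.24 in L1 to L3 and 6.02, 6.08 and 6.18 in T1 to T3, a difference of 0.03 (95% interval -0.23 to 0.30). Cacna1b, the pore of the N-type channel, differed by 0.03 as well (-0.22 to 0.29). Cacna1a, Cacna1b, Cacna1c and Cacna1h were above the gauge in all 6 arrays, and 5 of the 10 were above it in none. Without L2, 0 of the 10 passed.

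Gamma subunits and the related AMPA receptor regulators gave 0 of 7 passing (0 at an unadjusted p below 0.05), with a median of -0.15. The AMPA receptor regulators Cacng4 and Cacng7 had the highest means and differed by -0.15 each. Cacng3 differed by -0.61 (adjusted p = 0.396) and passed without L2 (-0.94, adjusted p = 0.00827), but it lay below the gauge in all 6 arrays. It was the 1 gene of the list to pass there, and in that fit 8.25% of all genes passed.

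Other proteins that act on these channels gave 0 of 8 passing. Of the 8, 2 had an unadjusted p below 0.05, as 12.6% of all genes had. Cachd1, a relative of the alpha2delta proteins, read 6.58, 6.79 and 6.65 in L1 to L3 and 7.10, 6.93 and 6.84 in T1 to T3. Its groups did not overlap, and the difference of 0.28 (95% interval 0.03 to 0.53) did not pass (adjusted p = 0.356). Rem2, a GTPase that inhibits calcium channels, differed by -0.26 with all its values below the gauge, and Cbarp, another inhibitor, by -0.12. Without L2, 0 of the 8 passed.

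Among thrombospondins and other reported partners of alpha2delta proteins, 0 of 8 passed. Of the 8, 2 had an unadjusted p below 0.05, beside 12.6% of all genes. Lrp1, an endocytic receptor, read 6.82, 6.58 and 6.83 in L1 to L3 and 6.10, 5.83 and 6.10 in T1 to T3, with no overlap. It differed by -0.73 (95% interval -1.005 to -0.46, limma, adjusted p = 0.0765). Without L2 it was the 1 gene of the list to pass (-0.81, limma, adjusted p = 0.00439), beside 8.25% of all genes. Thbs3, a thrombospondin, differed by 0.35 (0.06 to 0.65, adjusted p = 0.347), while Thbs1, Thbs2 and Thbs4 differed by 0.04, 0.06 and 0.01. The neurexin Nrxn3 differed by -0.21 (adjusted p = 0.640).

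Calcium release and clearance were read from 2 further lists. Of 10 store genes, 0 passed and 2 had an unadjusted p below 0.05, as 12.6% of all genes had. Ryr3, a ryanodine receptor that releases stored calcium, read 5.64, 6.08 and 5.36 in L1 to L3 and 6.45, 6.63 and 6.39 in T1 to T3, a difference of 0.80 (adjusted p = 0.183). Itpr2, an inositol trisphosphate receptor, differed by -0.39 (adjusted p = 0.331), and Stim2, a sensor of the store, by 0.12. Without L2, Ryr3 (0.99, limma, adjusted p = 0.00253) and Itpr2 (-0.52, adjusted p = 0.0221) passed, in opposite directions, beside 8.25% of all genes. Of 9 pumps and exchangers, 0 passed and 1, the exchanger Slc8a1 (-0.25), had an unadjusted p below 0.05, beside 12.6% of all genes. Atp2a2, the pump that refills the store, differed by -0.11 and Atp2b1, a pump of the plasma membrane, by -0.08. Without L2, 0 of the 9 passed.

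The synaptic genes with which alpha2delta subunits act in neurons did not pass. Of 15 measured genes of the presynaptic release machinery, 0 passed, and the median difference was -0.02. An unadjusted p below 0.05 was seen in 2 of them, Pclo (-0.38) and Rims2 (-0.35), beside 12.6% of all genes. The groups did not overlap in 6 of the 15, beside 17.0% of all genes. Of those, Pclo, Rims2 and Syt2 were lower in the third ventricle cultures, and Rimbp2, Cplx1 and Cplx2 were higher. Unc13a, which primes synaptic vesicles, differed by -0.02 and Erc1, a scaffold of the release site, by -0.04. Without L2, 0 of the 15 passed. Of 12 neuron markers 0 passed (5 at an unadjusted p below 0.05), and 5 had a positive and 7 a negative difference. Tubb3 and Dcx passed as lower without L2, in a fit where 8.25% of all genes passed in either direction. Over all arrays Gap43 differed by 0.60, Elavl4 by 0.41, Dcx by -1.63, Tubb3 by -0.60, Elavl3 by -0.33 and Stmn2 by -0.31. The groups did not overlap in 5 of the 12, Gap43, Elavl4, Dcx, Elavl3 and Stmn2, beside 17.0% of all genes. At an unadjusted p below 0.05 were Elavl4, which was higher, and Dcx, Tubb3, Elavl3 and Stmn2, which were lower. The mean log2 value of the list ranged from 6.68 to 6.70 in L1 to L3 and from 6.49 to 6.61 in T1 to T3. Of the 12, 8 lay above the gauge in all 6 arrays and 2, Syt1 and Stmn2, in none. Their part in the difference of Cacna2d3 was not tested.

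For reference, the 250 bases upstream of the RefSeq start of Cacna2d3 and Cacna2d1 are shown, because these genes had the family's largest differences, in opposite directions. They are from assembly GRCm38.p6, at chr14:29721865-29722114 on the minus strand for Cacna2d3 and chr5:15934441-15934690 on the plus strand for Cacna2d1. They are written 5′ to 3′ toward the start, with GC boxes, GGGCGG on either strand, in capitals.
Cacna2d3: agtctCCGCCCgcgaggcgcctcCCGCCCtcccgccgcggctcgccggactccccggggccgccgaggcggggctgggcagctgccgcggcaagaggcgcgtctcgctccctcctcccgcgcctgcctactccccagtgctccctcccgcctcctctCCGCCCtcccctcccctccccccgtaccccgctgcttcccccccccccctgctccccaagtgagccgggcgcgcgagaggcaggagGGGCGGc
Cacna2d1: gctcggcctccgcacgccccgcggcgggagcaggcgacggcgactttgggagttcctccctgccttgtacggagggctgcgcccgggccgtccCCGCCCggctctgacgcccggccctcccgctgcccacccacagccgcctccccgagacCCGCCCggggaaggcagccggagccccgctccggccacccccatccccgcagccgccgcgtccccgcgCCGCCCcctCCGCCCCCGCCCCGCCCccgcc
Both are rich in G and C, at 80.0% and 82.4% against a median of 52.4% over 32851 windows of the same length. Cacna2d3 holds 4 GC boxes and Cacna2d1 holds 6, of which some share a base, and 32.7% of all windows hold at least 1. Neither holds TATAAA on either strand, which 12.4% of windows do. These letters describe the windows and say nothing of which factors act there, and the arrays give no measurement of these regions.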

How the data were processed

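The authors deposited 1 log2 value for each probe set and array. The submitters' processing notes name RMA and Affymetrix Expression Console 1.1, and no further setting is given in the sources used here. Per the labels' protocols, RNA was extracted with Trizol and amplified with the NuGEN WT-Ovation Pico system from 500 pg to 50 ng. Amplification can add spread between arrays, and RMA compresses dim values. Of 35556 probe sets, 21789 had 1 gene symbol, 1621 several, and 12146 were not listed and stay unnamed. Differences are the third minus the lateral ventricle, fitted over 19938 genes with limma 3.58.1 in R 4.3.3 without a filter, with moderated SEs and 95% intervals. The number of arrays limits the precision. An exact permutation of 3 against 3 arrays cannot go below a two-sided p of 0.1. The fit was tested on simulated data. The members, gene lists and gauge of background were chosen with earlier results of these data known. Each list gave up to 4 passing genes by name or, with none passing, its 2 genes of highest mean. Further genes were named after their values were seen: those at a list's extremes, with groups that did not overlap, or passing without lateral ventricle array 2, and sister genes of those. Alternatives changed the probe set, normalization, variance prior or array weights, dropped the dimmest 40% of genes, added a replicate block or left out 1 array. RefSeq promoter windows were matched by symbol.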

Additional observations from a re-analysis of the deposited data

How the results depend on the processing

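The count of members passing was 1, Cacna2d3, under each alternative of probe set, filter, normalization, variance prior, array weights and replicate block. With each array left out it ranged from 0 to 1, and was 0 without T1, T2 or T3. Chosen after seeing the data were the fit over all probe sets, where it was 0, and the fit with L2 as the sole lateral array, assumed to vary like T1 to T3, where it was 1. Over all genes 46 passed, against 158 with array weights, 4 among all probe sets and 4 to 1644 with each array left out, the highest without L2. The cause was not tested. Cacna2d3 kept its direction in 15 of 15 alternatives (1.43 to 1.70). All of these refit the arrays on which the gene was chosen, so they describe the fits and give no separate evidence. Cacna2d4 ranged from -0.070 to 0.016 with each array left out, above 0 without L3 (0.01) or T1 (0.016), and was 0.026 against L2 alone. Cacnb4 ranged from -0.095 to 0.054, above 0 without L3 (0.054) or T3 (0.03), and was 0.0094 against L2 alone. In those 6 fits neither gene passed. The deviations of same-numbered arrays from their group means correlated at 0.24, 0.11 and 0.07 for numbers 1, 2 and 3. Each of the 6 arrays correlated best with its own number. The main fit nevertheless treated the arrays as unpaired, because the labels tie no number to an animal. With the replicate block 57 genes passed and Cacna2d3 differed by 1.54 (limma, adjusted p = 0.0255).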
